A study of Mus musculus with 98 samples.

Results

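The genes described here are 10 transcription factor genes of embryonic and stromal mesenchyme: the forkhead genes Foxc1, Foxc2, Foxf1 and Foxp1, the basic helix-loop-helix (bHLH) genes Twist1, Twist2 and Tcf21, the paired-related homeobox genes Prrx1 and Prrx2, and the T-box gene Tbx18. They were taken by name, without a threshold on any measured value, though with earlier results of these data known. All 10 were found among the 22231 genes of a single-cell age series of the mouse thymic stroma. They were also among the 39179 gene identifiers of a bulk RNA-seq table of this stroma. The age series holds nonepithelial thymic stroma (NETS), sorted as live Ter119-CD45-EpCAM- cells from WT mice, at E12.5 and E13.5 (1 library each) and at E16.5, P0 and 4 weeks (W4, 2 libraries each), in which the authors labelled 19 subtypes. A newborn single-cell set holds Ter119-CD45- cells of P0 mice, fixed with RNAprotect before capture, in 3 libraries labelled Tbx1+/-Crkl+/- and 3 of WT littermates, where the study's methods describe a lacZ insertion at Tbx1 and a germline null allele of Crkl. The bulk table holds WT populations sorted at P0 and W4 with 6 libraries per population and age. Of these, CD31+ (endothelial), Ly51+gp38- (pericytes and vascular smooth muscle), gp38+CD26+ (capsular) and gp38+CD26- (enriched in the medulla) are nonepithelial. By the paper's projection onto its single-cell clusters, gp38+CD26- also held capsular fibroblasts labelled CapFb1. The others, cTEC, mTEC and, at W4, mTEChi and mTEClo, are cortical and medullary thymic epithelial cells. The study's methods name C57BL/6 as the WT strain, no allele or agent is shared by all groups, and embryonic thymi of E12.5 and E13.5 were pooled over litters while 2 thymi stand behind each later age. The labels do not tie libraries to animals, so p-values measure the spread between libraries, which may be technical, most of all in the bulk data, where the number of animals is not given in the sources used here.

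Forkhead, bHLH, homeobox and T-box proteins bind DNA and switch target genes on or off. Twist and Prrx factors keep mesenchymal cells of the head, limb and neck in an undifferentiated, migratory state, Foxc1 and Foxc2 act in neural crest and mesoderm and in the building of vessel walls, and Tcf21 and Tbx18 mark fibroblast and mural or mesothelial lineages of several organs. The thymus capsule, the septa and the cells that wrap its vessels derive largely from neural crest mesenchyme.

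The libraries of the age series held 28583048 to 93040640 UMIs (unique molecular identifiers, counted once per captured transcript), with medians of 10005 to 14031 per cell, the newborn libraries 4978011 to 31418527 UMIs with medians of 2391 to 4686, and all bulk libraries but 1 held 5785352 to 15852166 reads in genes. The exception, gp38+CD26+ replicate 2 at W4, held 25702 and was left out of every bulk value here unless said, so this group has n = 5. Of 36053 distinct cell barcodes of the age series, 0.43% occurred in more than 1 library, and 44 of 21407 (0.206%) did so in the newborn data. The mural, endothelial and mesothelial subtypes carried their defining markers: the summed level of Kcnj8, Abcc9 and Rgs5 had its highest medians in VSM and Pc, that of Acta2, Myh11 and Tagln in VSM, that of Pecam1, Cdh5 and Kdr in the endothelial subtypes and that of Msln, Upk3b and Wt1 in Mes. In VSM and Pc the fibroblast markers Pdgfra, Col1a1, Col3a1, Dcn and Lum were detected too, with median sums of 1580 and 3006 CPM (counts per 1000000) against 31370 CPM in CapFb2a.

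By their highest mean the members lay in fibroblasts (Foxc2, Twist1, Twist2, Tcf21 and Prrx2), mural cells (Foxc1, Foxf1 and Prrx1), endothelium (Foxp1) and mesothelium (Tbx18). Levels are CPM of UMI sums, taken for each subtype in each library, with mean ± SD over the libraries that held at least 5 cells of it. They are 3′ tag counts, so each gene is compared with itself across subtypes and not with the other members. The subtypes were themselves defined by clustering these counts, and the levels are therefore a description without a test. For 15 to 18 of the 18 steps in a member's order of subtypes, the neighbouring means lay within their SDs of each other.

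Among the forkhead genes, Foxc1, which lies at chr13:31806633-31812476 (GRCm38, plus strand) and acts in eye, skull and vessel development, was highest in vascular smooth muscle (VSM) with 65.4 ± 47.5 CPM (SD, n = 8), and Foxc2, at chr8:121116171-121118895, a gene of lymphatic and arterial development, reached 58.3 ± 65.4 CPM in CapFb2a and 56.5 CPM in VSM. Both levels rest in part on the E12.5 library, and without it or without the E13.5 library the highest subtype of Foxc2 was VSM. Foxf1 (chr8:121084386-121088144), a target of hedgehog signalling in visceral mesenchyme, lies 28026 bases from Foxc2 on the same strand. Its mean was low in every subtype, with at most 8.32 ± 6.28 CPM in VSM and 7.82 CPM in pericytes (Pc), an order that turned without P0 replicate 1. Single libraries lay higher. At E12.5 Foxf1 held 30.1 CPM in CapFb2a, 27.1 in CapFb1a and 20.8 in CapFb2b, and in P0 replicate 1 it held 21.2 CPM in VSM. Foxp1 (chr6:98925338-99522721, minus strand), a repressor expressed in many tissues, was unlike the other members in that its highest means were endothelial, with 276 ± 106 CPM in arterial (EnA) and 228 CPM in venous and lymphatic endothelium (EnVL), yet it was detected in all 19 subtypes.

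Twist1 (chr12:33957671-33959829, plus strand), the archetypal mesenchymal bHLH repressor, was spread over the capsular fibroblasts (CapFb), medullary fibroblasts (MedFb) and mesothelium (Mes), with its highest means in CapFb1c (205 ± 126 CPM) and CapFb1b (171.8 CPM). The CapFb1c mean ranges from 55.7 CPM at E12.5, where the subtype held 10 cells, to 495 CPM at E13.5 with 44 cells. Twist2 (chr1:91801461-91848028, plus strand), its close paralogue, which regulates dermal and bone-forming cells, had a narrower range among the capsular subtypes: CapFb3, CapFb2a, CapFb2b and CapFb4 held means of 55.8, 50.6, 49.7 and 47.2 CPM, and the next subtype, CapFb1a, 26.6 CPM. Of the exon bases of Twist2, 46.5% are shared with an antisense gene, Gm29100, which took 133 UMIs in the age series. Tcf21 (chr10:22817281-22820174, minus strand), a bHLH gene of visceral and perivascular fibroblast progenitors, was highest in CapFb1b with 63.2 ± 14.5 CPM, with MedFb1b and MedFb1a next at 45 and 42 CPM.

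Prrx1 (chr1:163245119-163313710, minus strand), a homeobox gene of limb and craniofacial mesenchyme and of fibroblast progenitors, was highest in Pc with 625 ± 324 CPM, followed by CapFb1b with 439 CPM, and was carried by 96.1% of Pc. The share of cells with at least 1 Prrx1 UMI was 12.3% in capillary endothelium (EnC) and 8.92% in neural crest cells (NCC), at medians of 8445, 12070 and 9414 UMIs per cell in Pc, EnC and NCC, and after each cell was thinned to 2000 UMIs the shares were 68.5, 4.12 and 2.80%. Prrx2, its paralogue, was highest in CapFb2b and CapFb3 with 88.5 and 83.7 CPM, with a mean of 26 CPM in Pc that rests on 127.5 CPM at E12.5, the other 7 libraries lying at 1.69 to 41.7 CPM. Tbx18 (chr9:87702800-87731260, minus strand), a gene of mural and mesothelial cells in other organs, stood out in Mes with 163.4 ± 170.4 CPM (n = 7 libraries), against 32.9 CPM in the next subtype, CapFb3. The Mes values spread widely, from 504 CPM at E12.5 (20 cells) and 267 CPM at E13.5 (30 cells) to 61.4 and 75.9 CPM at W4, and 11.7 CPM in E16.5 replicate 2 with 5 cells.

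**Figure D1:**
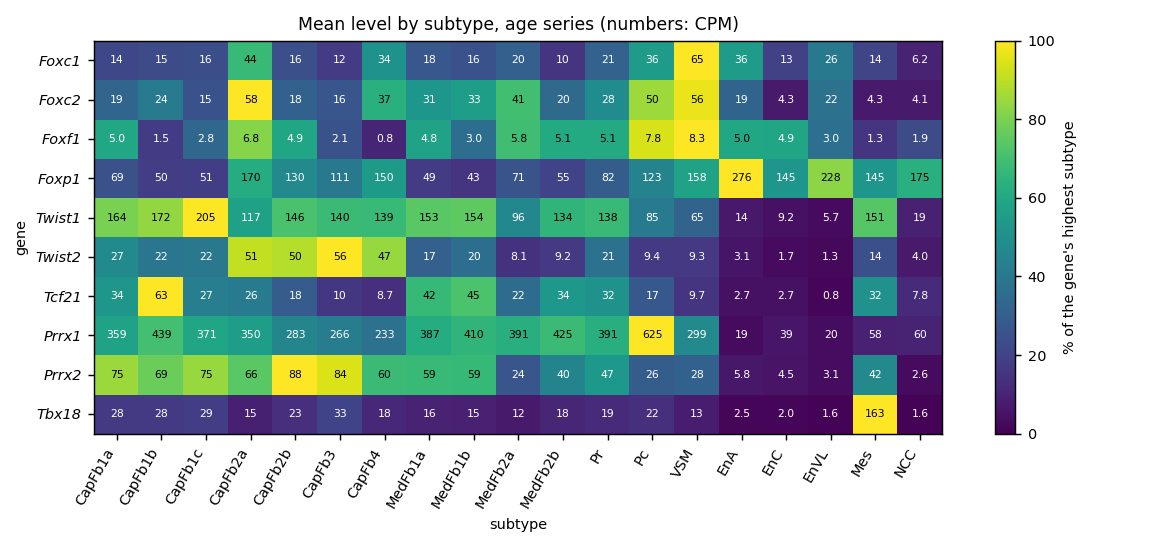
Mean level of each member (rows) in the 19 subtypes of the age series (columns). Numbers are CPM averaged over libraries with at least 5 cells, and colour is the percentage of the gene's own highest subtype. Prrx1 peaks in Pc at 625 CPM, Tbx18 in Mes at 163.4 CPM and Foxp1 in EnA at 276 CPM, while Twist1, Twist2 and Prrx2 are lowest in endothelium and NCC.

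The highest subtype of all 10 members was the same when each cell was given equal weight, and of 8 when cells were ranked by the thinned share, where Foxc1 moved to EnA and Prrx2 to CapFb3. In the 3 WT newborn libraries, a separate and shallower experiment, 6 of 10 had the same highest subtype, while Prrx2 was highest in CapFb1a, Tcf21 in CapFb2a, Twist1 in Mes and Twist2 in CapFb4.

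Across the 19 subtypes, which share libraries and depth and whose values are means of log2(CPM + 1), the most alike members were Twist2 and Prrx2 (Pearson's r = 0.936), then Twist1 and Prrx2 (0.925), Twist1 and Tbx18 (0.898) and Twist1 and Prrx1 (0.895). Foxc1 and Foxc2 had r = 0.724, and the most opposite pair was Foxp1 and Tcf21 with r = -0.873. Among 11578 genes that reached 10 CPM in a subtype, the pattern most like that of Twist1 was held by B830012L14Rik (r = 0.989), Sh3bp1 and Meis1, that most like Twist2 by Aff2 (0.963), Sertad4 and Akap12, and that most like Tcf21 by Cdkn2b (0.949), Tshz3 and Adcyap1r1. Pcdh18 (0.974), Nfatc4 and Gm26523, a noncoding gene that lies within the span of Prrx1 on the same strand, were closest to Prrx1, Glt8d2 (0.978), Crtap and Zim1 to Prrx2, and Smim1 (0.968), Mpdz and Rab40b to Tbx18. For the forkhead genes these were Cdc42bpa (0.858), Msrb3 and Ctps for Foxc1, Prdm11 (0.883), Eif2b3 and Plekhh3 for Foxc2, and Aig1 (0.936), Klf13 and Nedd9 for Foxp1. The mean of Foxf1 stayed under 10 CPM in every subtype, so this gene was not searched.

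The sequences upstream of the most alike pair, Twist2 and Prrx2, are shown because both genes are GC-rich at their start and hold neither the E box nor the forkhead core searched for. They are the 250 bases before the RefSeq start on the plus strand of GRCm38.p6, chr1:91801211-91801460 for Twist2 and chr2:30845117-30845366 for Prrx2, where the Prrx2 start is that of a RefSeq transcript inside the longer GENCODE gene span of chr2:30834972-30881251. Capitals mark GC boxes (GGGCGG) and CCAAT boxes on either strand.
Twist2: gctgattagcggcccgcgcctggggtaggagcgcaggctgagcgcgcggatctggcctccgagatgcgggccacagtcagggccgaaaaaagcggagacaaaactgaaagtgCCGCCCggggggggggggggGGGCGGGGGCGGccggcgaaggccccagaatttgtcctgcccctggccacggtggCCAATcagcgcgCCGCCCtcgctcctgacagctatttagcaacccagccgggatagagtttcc
Prrx2: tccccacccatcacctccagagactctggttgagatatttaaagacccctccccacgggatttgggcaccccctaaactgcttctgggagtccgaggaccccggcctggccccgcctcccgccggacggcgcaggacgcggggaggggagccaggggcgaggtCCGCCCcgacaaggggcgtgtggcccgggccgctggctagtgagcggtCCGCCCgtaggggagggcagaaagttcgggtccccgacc
The Twist2 stretch has a GC content of 68.8% with 4 GC boxes and 1 CCAAT box, and the Prrx2 stretch has 70% with 2 GC boxes, against a median of 52.4% over 32851 such promoters. Neither stretch holds an E box (CANNTG, the core bound by bHLH factors), which 66.2% of all promoters hold, or the forkhead core GTAAACA, which 3.17% hold, each searched on both strands. GC boxes occur in 32.7% and CCAAT boxes in 33.8% of all promoters, so they are common upstream of genes. Upstream stretches were found for 8 of 10 members, and an E box lay in those of Foxp1 and Tbx18. A match of these letters is a description of the window and shows no binding.

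Nearly all members differed over the 5 ages within a subtype, which asks how far their levels are set by development. In edgeR's quasi-likelihood F test on UMIs summed per library, 93 of the members' tests, each of a member in a subtype, passed an adjusted p (Benjamini-Hochberg over all genes) of 0.05 in 11 subtypes with at least 20 cells in every library, where 56.7% of the tests of all genes passed. The members' share, 90.3%, lies above that background, in which weakly expressed genes are included. E12.5 and E13.5 had 1 library each, and without the E12.5 library 78 passed. Those that did not pass were Foxf1 in CapFb1b and CapFb3, Twist1 in CapFb2a, EnC, EnVL and VSM, Tbx18 in CapFb3 and VSM, and Prrx2 and Tcf21 in EnC.

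Foxc1 and Foxc2 had their highest levels at E12.5 in fibroblasts and in cells labelled Pc or VSM alike. At E12.5 these 2 labels covered 65 and 59 cells of 1 library. By flow cytometry the paper found no Ly51+gp38- pericytes before E16.5. Foxc2 in Pc stood at 195 CPM at E12.5, 46.2 at E13.5, 32.3 and 33.6 at E16.5, 39.4 and 37 at P0, and 8.03 and 5.97 at W4. Foxc1 in VSM held 168.7 CPM at E12.5, 98.7 at E13.5, 27.5 and 28.2 at E16.5, 61.7 and 42.3 at P0, and 44.9 and 51.1 at W4. So Foxc2 in Pc was lowest in the W4 libraries, while Foxc1 in VSM was lowest at E16.5 and higher again after it. Foxp1 summed over the 11 fibroblast subtypes had a low point at E16.5 as well. It held 237 CPM at E12.5, 68.3 at E13.5, 39.1 and 41.4 at E16.5, 80.7 and 52.4 at P0, and 88 and 99.2 at W4. The paper reports that subtype shares changed with age, and their part in this course was not tested. Within CapFb1c the libraries held 20.9 and 24.3 CPM at E16.5, 41.5 and 33.2 at P0, and 87.8 and 82.3 at W4. MedFb1b had no such rise, with 28.1 and 34.2 CPM at E16.5, 34.3 and 35.4 at P0, and 35.6 and 32.2 at W4. From E16.5 to P0 Foxp1 passed upwards in 9 of 17 tested subtypes and downwards in 0.

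Prrx1 and Prrx2 moved in opposite ways in Pc. Prrx1 in Pc stood at 182.4 CPM at E12.5 and 222 at E13.5, then 542 and 561 at E16.5, 650 and 768 at P0, and 1078 and 997 at W4. Prrx2 in Pc stood at 127.5 CPM at E12.5 and 41.7 at E13.5, then 8.22 and 8.62 at E16.5, 10.3 and 5.85 at P0, and 1.69 and 4.88 at W4. Each later age thus lay above the one before it for Prrx1, with no overlap of the libraries. Yet from E16.5 to P0 Prrx1 passed upwards in 0 of 17 tested subtypes and downwards in 2. These levels are shares of all UMIs. In Pc of E16.5, 875 and 962 cells held 5342 and 6052 Prrx1 UMIs, of 9857968 and 10784014 UMIs in all. At W4, 440 and 336 cells held 2552 and 1837, of 2366641 and 1843190. The part of the smaller totals per cell in the climb was not tested. For Prrx2 the embryonic libraries before E16.5 stood apart from all others. In VSM Prrx2 likewise held 142.96 CPM at E12.5, 44.6 at E13.5 and 0.945 to 8.91 in the 6 later libraries. Prrx1 in VSM had no steady course, with 209 CPM at E12.5, 133.1 at E13.5, 353 and 360 at E16.5, 214 and 291 at P0, and 438 and 390 at W4. Tbx18 in Pc went from 1.69 CPM at E12.5 and 11.7 at E13.5 to 19.4 to 39.3 in the later ones. The Pc label covers cells whose markers also moved: the sum of the 3 pericyte markers in Pc was 1050 and 706 CPM at E12.5 and E13.5 against 9805 and 9752 at W4, while the sum of the 5 fibroblast markers was 2616 and 3523 against 2858 and 3154 CPM. Their part in the changes of the members was not tested.

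**Figure D2:**
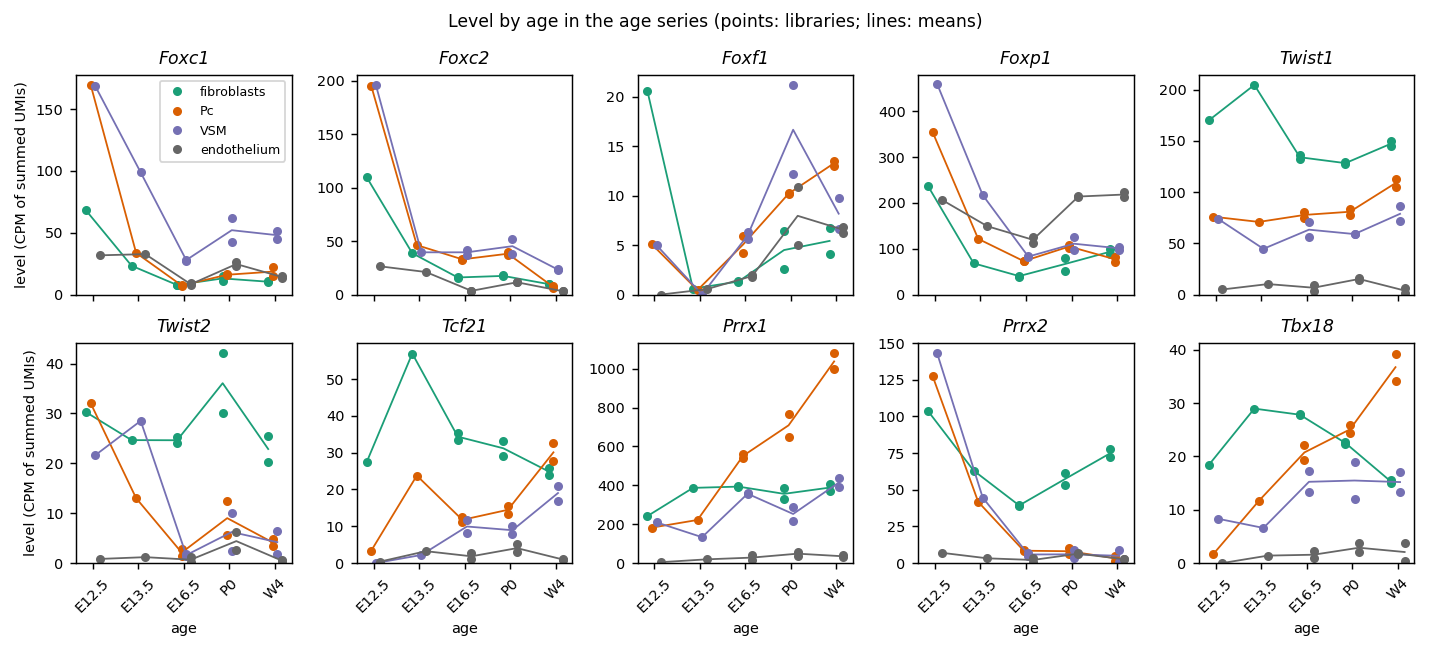
Level of each member (CPM of summed UMIs, linear axes from 0) against age in fibroblasts, Pc, VSM and endothelium of the age series. Points are libraries (1 at E12.5 and E13.5, 2 at each later age) and lines join the means. Prrx1 in Pc climbs from 182.4 CPM to 997 and 1078 CPM while Prrx2 there falls from 127.5 CPM to 1.69 and 4.88 CPM.

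The interval from P0 to W4 has 2 libraries at each end and was tested in 17 subtypes in a fit with E16.5. Of the members' tests in these subtypes, 28 were higher at W4 and 25 lower by edgeR's quasi-likelihood test (adjusted p under 0.05), against a background of 15.3% higher and 15.0% lower among all genes. Taken in either direction, 36.3% of the members' tests and 30.3% of all tests passed, so the members lay near the background. Without W4 replicate 2, 17 were higher. The number lower was smaller by DESeq2 and larger without the filter on low counts, as given below. Of these 53 calls, 20 held in every alternative analysis, and these are the calls given next with their values, unless a library or DESeq2 is named as ending one.

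Foxc2 fell from P0 to W4 in every subtype where it passed, 7 in all. The largest change was in Pc, a log2 fold change of -2.61 ± 0.19 (SE, adjusted p = 1.39e-06). In CapFb2a its P0 libraries held 48.9 and 39.4 CPM and its W4 libraries 8 and 12.1 (log2 fold change -2.02), and in EnVL 25.8 and 25.3 CPM became 5.62 and 6.03 (-2.19), counts that rest on 6 and 5 UMIs at W4. MedFb1a and MedFb1b followed with -1.27 and -1.20. In each of these 5 subtypes both W4 libraries lay below both P0 libraries. The falls in VSM (-1.01) and MedFb2a (-0.48) were lost without W4 replicate 1 or 2, and that in MedFb2a also without P0 replicate 2. Foxc1 passed in 4 subtypes, higher in CapFb1c and lower in CapFb2a, EnVL and MedFb1a, and each of these calls was lost without at least 1 library, among them W4 replicate 1 for CapFb1c, EnVL and MedFb1a and W4 replicate 2 for CapFb2a.

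Foxf1 rose from P0 to W4 in MedFb1a and MedFb1b. In MedFb1b it held 0 CPM at E12.5, 0.521 at E13.5, 0.6246 and 0.371 at E16.5, 1.65 and 1.44 at P0, and 10.9 and 8.63 at W4. The P0 libraries had 7 and 9 UMIs and the W4 libraries 40 and 38, and W4 was higher by 2.62 ± 0.36 on the log2 scale (adjusted p = 2.83e-05). In MedFb1a the values were 2.37 and 3.35 CPM at P0 and 11.6 and 14.3 at W4 (2.04), a call lost without W4 replicate 2.

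Foxp1 rose in 5 of 7 capsular subtypes and fell in Pc, while CapFb2a and CapFb3 did not pass. In CapFb1c it stood at 41.5 and 33.2 CPM at P0 and 87.8 and 82.3 at W4, a log2 fold change of 1.18 ± 0.14 (adjusted p = 1.44e-05), with 1.09 in CapFb1a, 1.05 in CapFb1b and 0.81 in CapFb2b. In Pc the 107.9 and 102 CPM of P0 became 71.8 and 82.5 (log2 fold change -0.64 ± 0.10). The W4 libraries of these subtypes lay wholly on one side of the P0 libraries. It also passed upwards in CapFb4, MedFb2a and MedFb2b and downwards in EnVL. The CapFb4, MedFb2b and EnVL calls were lost without P0 replicate 2, those in CapFb4 and EnVL also without W4 replicate 2 and that in EnVL without W4 replicate 1, and the MedFb2a call was lost by DESeq2.

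The bHLH genes differed in direction. Twist1 passed upwards in 5 subtypes, Twist2 downwards in 5, and Tcf21 upwards in 3 and downwards in 2. Twist2 fell in CapFb4 from 48.1 and 57.7 CPM to 20.2 and 24.9 (log2 fold change -1.10 ± 0.18, adjusted p = 4.18e-05) and in CapFb1a from 40.8 and 33.1 to 17.3 and 17.4 CPM (-1.005). Twist1 in CapFb4 rose from 116 and 111 CPM to 174 and 159 (0.62 ± 0.10, adjusted p = 5.53e-05), and in MedFb1b from 134.9 and 131.1 to 177 and 168.3 CPM (0.34). In CapFb4 the paralogues therefore moved apart, although the difference between them was not tested. Tcf21 showed the steepest fall of all members, in CapFb2b: 30 CPM at E12.5, 19.5 at E13.5, 23 and 17.8 at E16.5, 31.2 and 20.4 at P0, then 2.79 and 2.53 at W4, from 111 and 54 UMIs at P0 to 7 and 10 (-3.20 ± 0.33, adjusted p = 4.01e-05). In Pc, by contrast, Tcf21 rose from 13.3 and 15.6 to 32.5 and 27.7 CPM (0.85), a call lost without W4 replicate 1.

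Tbx18 was lower at W4 in 5 of 7 capsular subtypes, with CapFb2a and CapFb3 not passing. Of these calls, that in CapFb1c was lost without W4 replicate 2, that in CapFb4 without W4 replicate 1 or P0 replicate 2, and that in CapFb2b without P0 replicate 2, W4 replicate 2 or either E16.5 library, and the latter 2 also by DESeq2. Tbx18 in CapFb1a held 36 and 41.1 CPM at P0 and 9.44 and 10.8 at W4 (log2 fold change -1.82 ± 0.21, adjusted p = 1.43e-05), and in CapFb1b 33.1 and 27.3 CPM became 18.9 and 14.3 (-0.89). Prrx2 in CapFb2b held 81.3 and 75.1 CPM at P0 and 143.6 and 126 at W4 (0.88 ± 0.11, adjusted p = 0.000107). Prrx1 in CapFb1c rose from 260 and 275 to 463 and 393 CPM (0.66 ± 0.10, adjusted p = 0.000119). Its rise in Pc (0.35) passed too but was lost without W4 replicate 1, P0 replicate 1 or either E16.5 library, as was the fall of Prrx2 in Pc (-1.49) without P0 replicate 1 or W4 replicate 1.

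Between E16.5 and P0, 30 of the members' tests were higher at P0 and 10 lower by edgeR's quasi-likelihood test, against a background of 7.53% higher and 6.68% lower. In either direction 27.4% of the members' tests passed, against 14.2% of all. Without E16.5 replicate 1 the counts higher and lower were 6 and 1, and without E16.5 replicate 2 they were 12 and 3. By DESeq2 fewer passed in each direction, and without the filter on low counts more were lower, as given below. Foxc1 and Foxc2 in EnVL were the calls that held in every alternative. Foxc1 there stood at 9.87 and 15.8 CPM at E16.5 and 42.6 and 39.6 at P0 (log2 fold change 1.60 ± 0.30), and Foxc2 at 7.28 and 6 CPM, then 25.8 and 25.3 (1.91 ± 0.32). For both genes the P0 libraries lay above all E16.5 and W4 libraries, so their level in EnVL was highest at P0 among the ages with 2 libraries.

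**Figure D3:**
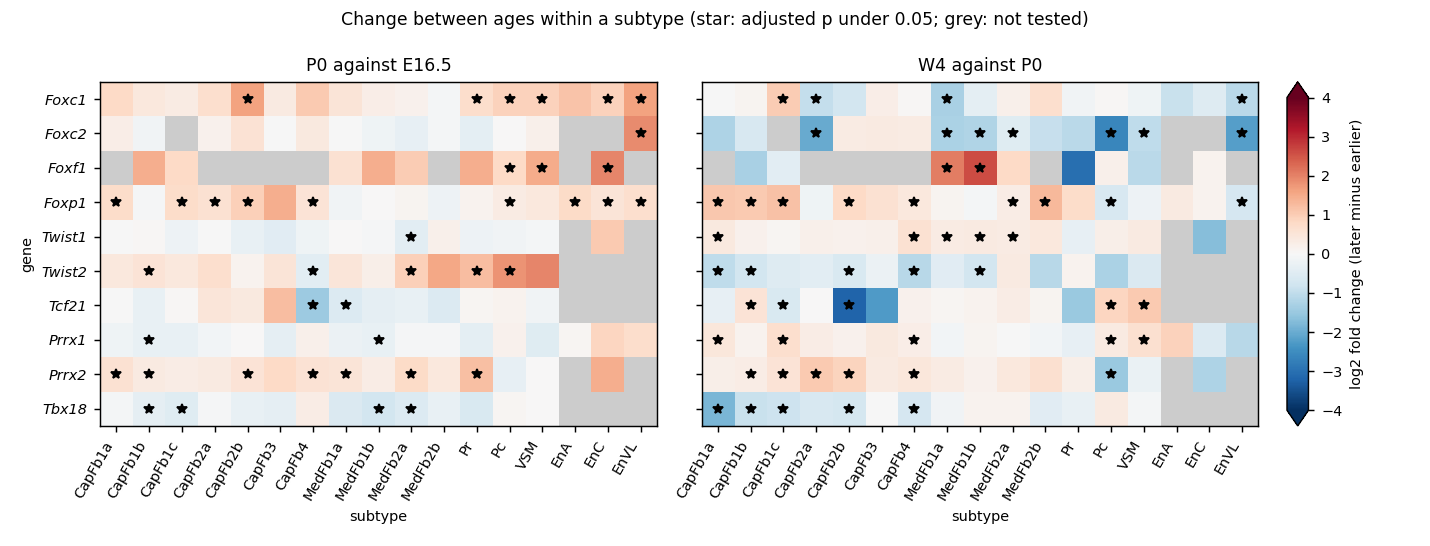
Log2 fold change of each member (rows) in each tested subtype (columns), P0 minus E16.5 (left) and W4 minus P0 (right). Red is higher at the later age and blue lower, stars mark an adjusted p under 0.05 and grey cells were not tested. On the right, Foxc2, Twist2 and Tbx18 carry stars on blue cells only, and Tcf21 in CapFb2b is the darkest starred cell at -3.20.

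In bulk RNA-seq the sorted mesenchymal populations were set against endothelium, a contrast that the surface proteins and not the members define. In bulk samples, fewer cells of a type and less RNA per cell cannot be told apart. Twist1, Twist2, Tcf21, Prrx1, Prrx2 and Tbx18 were higher in the mean of Ly51+gp38-, gp38+CD26+ and gp38+CD26- than in CD31+ at both ages, and Foxp1 was lower at both (edgeR's quasi-likelihood test, adjusted p under 0.05). That makes 6 of 9 tested members higher at P0 and 6 of 10 at W4, where 17.2% and 17.9% of all genes were higher, and 1 lower at each age, where 14.7% and 14.3% were lower. Without overlap of any library, Tcf21, Prrx1 and Tbx18 lay above CD31+ at P0, where 6.49% of genes that reached 1 CPM did not overlap, and Twist1, Twist2 and Prrx1 above and Foxp1 below it at W4, where 6.74% did not. Foxc1, Foxc2 and, at W4, Foxf1 did not pass in either direction. Foxf1, whose highest means in the age series were in VSM and Pc, was fitted at -1.66 on the log2 scale at W4. Its P0 means over 2 sets of 3 libraries were 0.0517 and 0.546 CPM in Ly51+gp38-, against 5.01 and 7.56 in CD31+. At W4 they were 2.31 and 1.78 against 5.24 and 1.42. In CD31+, a library at 22.7 CPM at P0 and another at 13.6 CPM at W4 stood apart.

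Prrx1 was the member that lay apart from CD31+ without overlap at both ages. At P0 it held 161.4 to 250 CPM in Ly51+gp38- (median 226), 130.5 to 204 in gp38+CD26- (median 148.9) and 80.2 to 170 in gp38+CD26+ (median 104), against a single read in 1 of 6 CD31+ libraries. At W4 a CD31+ library, replicate 2, held 14.1 CPM while the others lay between 0 and 0.27 CPM, and every mesenchymal library still lay above it. In the age series, by contrast, EnC held Prrx1 at 46.3 and 83.6 CPM at P0 and at 43 and 50.3 CPM at W4. The source of this difference was not tested. Twist1, Twist2, Prrx2 and Tbx18 had no read in any CD31+ library at either age, nor had Tcf21 at W4. Against a limit of 3 counts over the CD31+ group, the mean mesenchymal level at P0 was at least 410-fold higher for Twist2, 337-fold for Tbx18, 82.6-fold for Twist1 and 44.0-fold for Prrx2, and at W4 at least 422-fold for Twist2, 300-fold for Tbx18, 262-fold for Tcf21, 179.3-fold for Twist1 and 150-fold for Prrx2. For Prrx2 at W4 this mean rests mainly on the gp38+ populations, since Ly51+gp38- held 2.15 CPM in replicate 5 and 0 in all its other libraries. The Prrx2 call at W4 was lost without Ly51+gp38- replicate 5.

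Foxp1 ran the other way in the same libraries. In CD31+ it ranged from 37.3 to 360 CPM at P0 (median 308) and from 187.4 to 277 at W4 (median 210), and in Ly51+gp38- from 83.8 to 159 (median 137.5) and from 77.1 to 172.1 (median 131.7). The W4 CD31+ libraries lay above every mesenchymal library, whereas at P0 CD31+ replicate 1, at 37.3 CPM, lay below them. The log2 fold change of mesenchyme against CD31+ was -1.19 ± 0.27 (adjusted p = 0.00119) at P0 and -1.08 ± 0.14 (adjusted p = 2.48e-06) at W4.

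**Figure D4:**
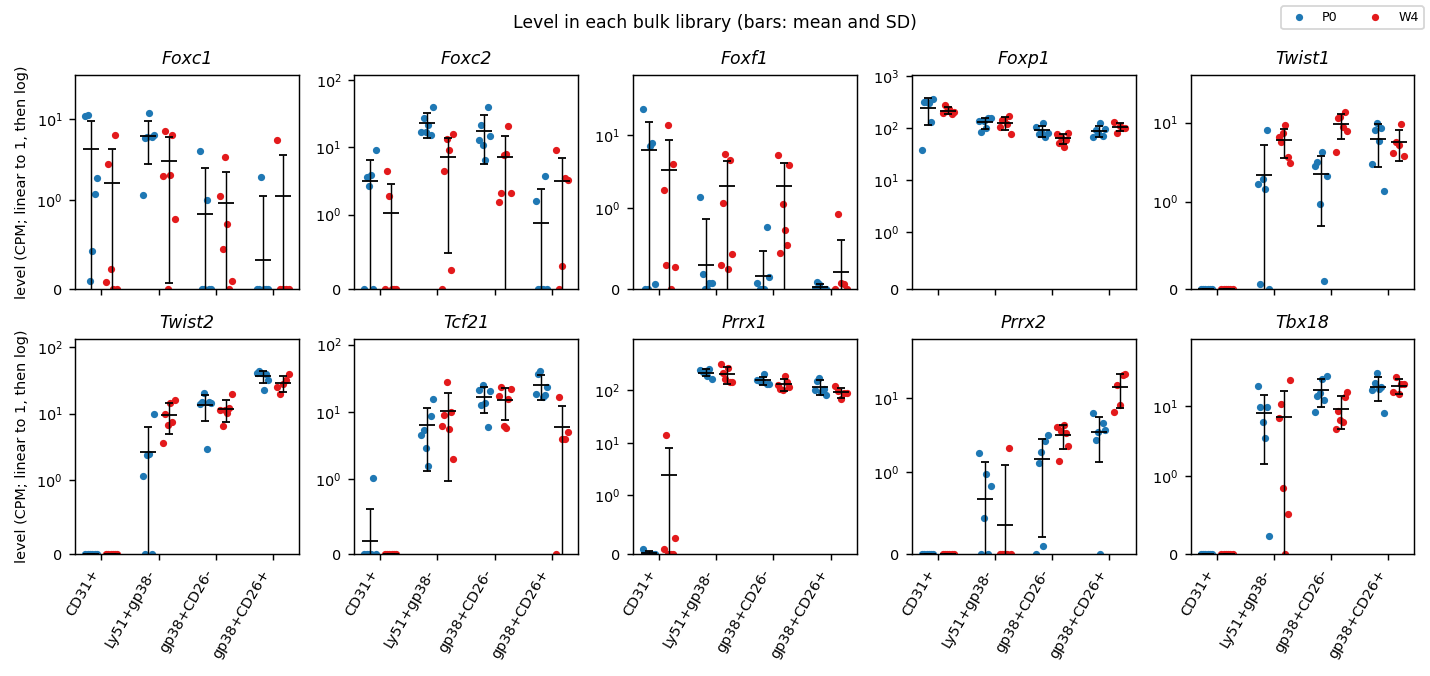
Level of each member in every nonepithelial bulk library (CPM, on an axis that is linear to 1 and logarithmic above), at P0 (blue) and W4 (red). Points are libraries, and bars give mean and SD (n = 6, and 5 for gp38+CD26+ at W4). Prrx1 lies at 66.4 to 309 CPM in every mesenchymal library, and Foxp1 is highest in CD31+ with means of 244 and 218 CPM.

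Related genes outside the 10 were counted in the same contrast, from lists of other forkhead and other T-box genes and from further lists. These were E proteins, Id inhibitors and other mesenchymal bHLH genes, and Prrx-related and other mesenchymal homeobox genes. The last list, of factors of epithelial-mesenchymal transition (EMT), also holds Osr and Ebf genes. Genes picked as mesenchymal are likely to be higher in mesenchyme, so their counts do not describe the bHLH or homeobox families at large. Beside the shares of all genes given above, 17.2% higher and 14.7% lower at P0 and 17.9% and 14.3% at W4, these are counts without a test. At P0, 4 of 14 tested forkhead genes were higher in mesenchyme and 1 lower, the latter being Foxo1 (-2.63 ± 0.32). The E protein, Id and bHLH list had 5 higher and 7 lower of 16, and the homeobox list 12 higher and 2 lower of 17. The EMT list had 7 higher and 1 lower of 10, and the T-box list 1 higher of 3. At W4 the forkhead list had 3 higher and 1 lower of 14, the bHLH list 7 and 7 of 16 and the homeobox list 9 and 2 of 19. The EMT list had 5 and 0 of 10 and the T-box list 3 and 0 of 4. Among these, Zeb2, a repressor of E-cadherin, was higher at P0 by 4.88 ± 0.60 on the log2 scale.

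Within the mesenchyme few members passed the test between the sorted populations, although fitted differences were as large as -4.24 on the log2 scale for Foxc2 at P0 and -3.07 for Foxf1 and 2.24 for Prrx2 at W4. In gp38+CD26+ against gp38+CD26-, none of 9 tested members passed at P0 by edgeR's quasi-likelihood test (1 with an unadjusted p under 0.05, and 1 by DESeq2), where 2.14% of all genes did, and 1 of 10 passed at W4, where 7.81% did. That member was Foxp1, with 130.8, 81.4, 112.2, 102.6 and 102 CPM in gp38+CD26+ and a range of 42.8 to 80.8 (median 64.3) in gp38+CD26-, 0.79 ± 0.19 higher on the log2 scale (adjusted p = 0.00997). The ranges do not overlap, as was so for 11.2% of all genes that reached 1 CPM, and the call was lost when the shallow library was kept. Prrx2 did not overlap either, at 6.56 to 21.2 CPM against 1.41 to 4.41, but did not pass. In the same W4 libraries the mesothelial markers Msln, Upk3b and Wt1 summed to 466.3 to 4990 CPM in gp38+CD26+ and 0 to 65.6 in gp38+CD26-, Mes of the age series held Foxp1 at 142.6 and 133.3 CPM at W4, and their part in the difference was not tested. Twist2 at P0 lay at 22.3 to 43.7 CPM (median 39.8) in gp38+CD26+ and 2.90 to 20.4 (median 14.7) in gp38+CD26-, also without overlap, as did 3.44% of all genes that reached 1 CPM, but it did not pass. Foxc2 at P0 was at 0 in 4 of 6 gp38+CD26+ libraries with at most 3.79 CPM, and at 6.497 to 40.2 CPM (median 13.7) in gp38+CD26- (adjusted p = 0.103 by edgeR, called by DESeq2). On simulated data this contrast at P0 recovered 9% of 2-fold and 37% of 4-fold changes, so a miss says little.

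Ly51+gp38- was set against the mean of the gp38+ populations. At P0 2 of 9 members passed, against 13.4% of all genes, and at W4 2 of 10, against 25.2%. Foxc1 did not pass, but was called higher at P0 with a block for the serial numbers in the labels. That block, given below, was added after seeing the data. Prrx1 at P0 was higher in Ly51+gp38- by a log2 value of 0.56 ± 0.18 (adjusted p = 0.0447), a call lost in 11 of 24 analyses that left out a library. Twist2 at P0 was lower (-3.19 ± 0.91, adjusted p = 0.0234): it held 1.16, 0, 2.39, 2.44, 0 and 9.78 CPM in the Ly51+gp38- libraries, with replicate 6 overlapping the gp38+CD26- range, and the call was lost without replicate 1, 3 or 4 of that group. At W4 Foxp1 was higher (0.59 ± 0.16, adjusted p = 0.0071), a call lost when the shallow library was kept. Prrx2 was lower at W4 (-4.20 ± 1.32, adjusted p = 0.0265), being at 0 in 5 of 6 Ly51+gp38- libraries and at 1.41 to 21.2 CPM in the gp38+ libraries, with replicate 5 at 2.15 CPM inside that range, and this call was lost in a fit with the epithelial populations.

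From P0 to W4 few of the members' tests in the sorted populations passed. Over 6 populations 2 of 35 tests of members were higher at W4 and none lower by edgeR's quasi-likelihood test (4 with an unadjusted p under 0.05), against a background of 7.53% higher and 6.1% lower, or 13.6% in either direction. Twist1 in gp38+CD26- ranged from 0.0965 to 4.30 CPM at P0 (median 2.48) and from 4.22 to 13.6 at W4 (median 10.2), with 1 W4 library below the highest P0 library, and rose by 2.22 ± 0.70 on the log2 scale (adjusted p = 0.0327). The call was lost without P0 replicate 3 and without each of W4 replicates 2 to 5. The other change was Foxp1 in cTEC, from a range of 75.5 to 133 CPM (median 109) to 130 to 183 (median 152), higher by 0.58 ± 0.15 on the log2 scale (adjusted p = 0.0139).

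In gp38+CD26+ the P0 and W4 libraries of a pair of members did not overlap, although neither member passed the test. Prrx2 held 6.26, 2.71, 3.46, 0, 4.61 and 3.69 CPM at P0 and 6.56, 15.1, 8.05, 20.6 and 21.2 at W4 (log2 fold change 2.16 ± 0.85, adjusted p = 0.124 by edgeR, called by DESeq2). Tcf21 went from 16.7 to 40.1 CPM (median 20.7) to 0, 16.4, 3.99, 3.96 and 5.03 (-1.997 ± 0.87, adjusted p = 0.167). Each W4 library of Prrx2 lay above, and each of Tcf21 below, all P0 libraries, as did 10.5% of all genes that reached 1 CPM in this comparison. In the same libraries the sum of the mesothelial markers Msln, Upk3b and Wt1 was 27.7 to 354 CPM at P0 (median 85.7) and 466.3 to 4990 at W4 (median 3748), and in the age series Mes held Prrx2 at 61.4 and 99.7 CPM at W4. The part of mesothelial cells in these differences was not tested. The difference in age change between gp38+CD26+ and gp38+CD26- passed for none of the members (0 of 9 in edgeR's test of the interaction, 2 with an unadjusted p under 0.05, and Foxp1 without P0 gp38+CD26+ replicate 4), where 4.99% of all genes did. The fitted differences ran from -2.22 (Twist1) to 3.08 (Foxc2) on the log2 scale. On simulated data this test recovered 4% of 2-fold and 30% of 4-fold changes, so a miss says little.

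**Figure D5:**
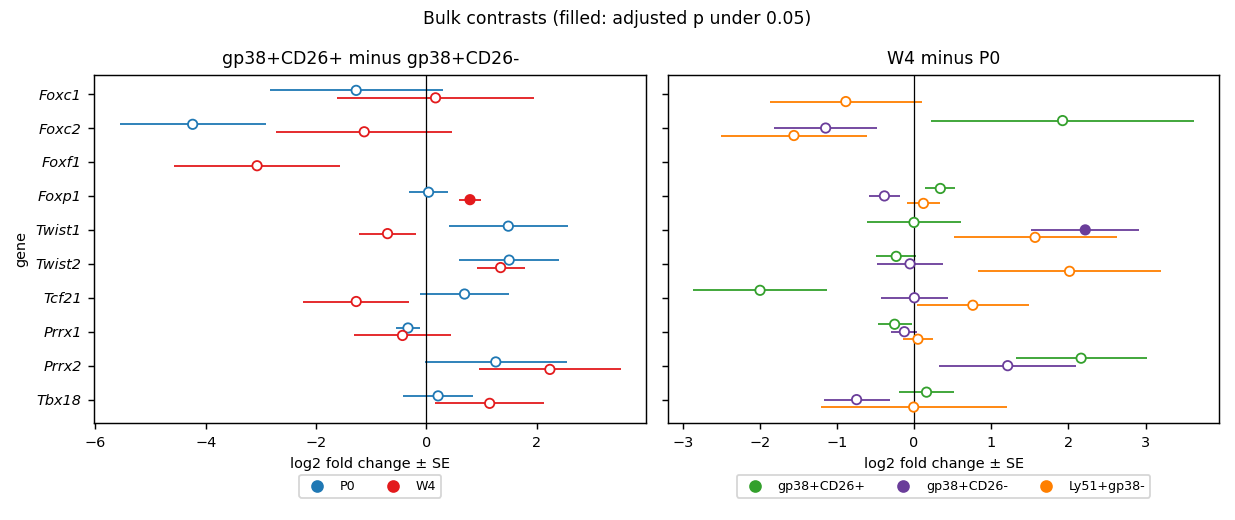
Log2 fold change ± SE of each member in bulk RNA-seq, gp38+CD26+ minus gp38+CD26- at P0 and W4 (left) and W4 minus P0 in 3 populations (right), where members too low to be tested have no symbol. Filled symbols have an adjusted p under 0.05, which are Foxp1 at W4 on the left (0.79) and Twist1 in gp38+CD26- on the right (2.22).

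The newborn libraries ask whether the loss of an allele of Tbx1 and of Crkl, genes of the region deleted in 22q11.2 deletion syndrome, alters the members. The targeted genes did not separate the groups: Crkl stood at 24.1, 23.6 and 26.9 CPM in libraries with the Tbx1+/-Crkl+/- label, against 23.0, 25.1 and 18.4 CPM in WT, and Tbx1 had 0, 0 and 8 UMIs against 13, 6 and 19. Where the counted 3′ ends lie relative to the altered alleles is not given in the sources used here. Of 50 tests of members in 12 subtypes none passed edgeR's quasi-likelihood test or DESeq2 (4 with an unadjusted p under 0.05), where 0.037% of all tests passed. These 4 were Foxp1 in CapFb1b, CapFb1c and MedFb2a, with log2 fold changes of 0.78 ± 0.25, 0.998 ± 0.41 and 0.61 ± 0.28, and Prrx2 in CapFb1b (-0.88 ± 0.31), with adjusted p of 0.429 to 0.759. Over the fibroblast subtypes together Foxp1 held 85.4, 96.2 and 134.1 CPM in libraries with that label against 93.2, 65.5 and 59.3 in WT, so the groups overlap, and Prrx2 held 21.6, 19.8 and 18.3 against 27.7, 37.8 and 29.9 CPM, each WT library lying above the others. Such a lack of overlap was found for 3 of 10 members over these subtypes, with Foxc1 above WT and Prrx2 and Tbx18 below it, and for 12% of all genes that reached 1 CPM there. Depth also separated the groups, with medians of 2551, 2391 and 2506 UMIs per cell in Tbx1+/-Crkl+/- against 2577, 3631 and 4686 in WT. These values pool fibroblast subtypes, and the paper reports that the shares of several of them differed by genotype. The parts of depth and of subtype shares were not tested. A p that misses the threshold does not show that the genotypes were alike.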

How the data were processed

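The authors sorted live stromal cells, prepared 10x Genomics 3′ libraries and ultra-low-input bulk libraries, and deposited raw counts: UMI counts per gene and cell with a subtype label for each cell, and bulk read counts per gene. The submitters' processing notes list Cell Ranger 3.1.0, STAR 2.5.3a and HTSeq and the builds mm10 and GRCh38. Which step used which is not given there.

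UMIs were summed per library and subtype, and levels were given where a library held at least 5 cells of the subtype. Tests ran in edgeR 4.0.16 (R 4.3.3) by the quasi-likelihood method with TMM scaling and a filter on low counts, on subtypes with at least 20 cells in every library, fitted over all genes with Benjamini-Hochberg adjustment at 0.05. Bulk ages were fitted per population, bulk populations per age over the 4 nonepithelial ones, and the interaction over both gp38+ populations, without the library of under 1000000 gene counts. The bulk labels carry 1 of 2 prefixes, 42 libraries each and both present in every group, whose meaning is not given in the sources used here. Alternatives were DESeq2 1.42.0 as size factors and as a test, no filter on low counts, the replicate number as a block (in bulk the place of the serial number in the labels), at least 50 cells, the prefix as a term, every library kept, a joint fit with the epithelial populations and leaving out each library. The test was checked on simulated data for 6 of the comparisons, not for all contrasts. Recovery of 2-fold and 4-fold changes was 55 and 89% over the 5 ages (Pc), 71 and 86% for W4 against P0 (CapFb1b) and 39 and 92% by genotype (VSM). In bulk it was 29 and 58% with age in gp38+CD26-, 9 and 37% for gp38+CD26+ against gp38+CD26- at P0, and 4 and 30% for the interaction. Of the calls, 2.25 to 8.11% were false. Cells were thinned to 2000 UMIs for shares, and the limit for a count of 0 was taken as 3 counts over a group, which covers counting error only. No further doublet removal was applied to the authors' labelled cells. Promoter stretches came from RefSeq (GRCm38.p6) and gene positions from GENCODE M21. Summaries used Python 3.11.15 with numpy 2.4.6, pandas 2.3.3 and scipy 1.17.1, and matplotlib 3.10.9 for figures.

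The members and the lists of related genes were chosen with earlier results of these data known. Genes named besides the 10 members were, for each list and bulk comparison, at most 4 that passed with the largest log2 fold change, and for each member the 3 genes of most similar pattern over the 19 subtypes on log2(CPM + 1), beside the targeted genes Tbx1 and Crkl.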

Additional observations from a re-analysis of the deposited data

Results flagged for a closer look

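In bulk, 19 of 80 groups of 5 or 6 libraries held a library far from the others in the level of a member, by Dixon's criterion. Chance meets it in about 1 of 20 groups of normally spread values, a rate that does not carry over to levels near 0, and in 5 of the 19 groups all other libraries were at 0.

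Among the forkhead genes, Foxc1 was apart at 1.94 CPM in P0 gp38+CD26+ replicate 3, at 4.08 CPM in P0 gp38+CD26- replicate 1, at 5.59 CPM in W4 gp38+CD26+ replicate 1 and at 3.40 CPM in W4 gp38+CD26- replicate 3. Foxc2 was apart at 20.9 CPM in W4 gp38+CD26- replicate 5. Foxf1 stood apart at 22.7 CPM in P0 CD31+ replicate 1, at 1.45 CPM in P0 Ly51+gp38- replicate 1, at 0.772 CPM in P0 gp38+CD26- replicate 5, at 13.6 CPM in W4 CD31+ replicate 3 and at 0.924 CPM in W4 gp38+CD26+ replicate 3.

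Among the homeobox genes, Prrx1 was apart at 0.0821 CPM in P0 CD31+ replicate 1, where the other libraries were at 0, at 204 CPM in P0 gp38+CD26- replicate 4 and at 14.1 CPM in W4 CD31+ replicate 2. Prrx2 was apart at 2.15 CPM in W4 Ly51+gp38- replicate 5. Among the bHLH genes, Tcf21 was apart at 1.04 CPM in P0 CD31+ replicate 5 and at 27.95 CPM in W4 Ly51+gp38- replicate 3, Twist1 at 8.01 CPM in P0 Ly51+gp38- replicate 5, and Twist2 at 9.78 CPM in P0 Ly51+gp38- replicate 6 and at 2.90 CPM in P0 gp38+CD26- replicate 4.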

How the results depend on the processing

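Of the counts of members past the threshold, these moved by more than 1.5 times or to or from 0 with a setting. Over the 5 ages, 61 pairs in 7 subtypes passed with at least 50 cells. For W4 against P0, 16 pairs were lower by DESeq2 and 40 without the filter on low counts. For P0 against E16.5, 14 were higher and 5 lower by DESeq2, and 18 lower without the filter. In bulk, gp38+CD26+ against gp38+CD26- had 1 member lower at P0 by DESeq2, and at W4 2 higher by DESeq2 and 0 with every library kept. Ly51+gp38- against the gp38+ populations had 0 higher at P0 without the filter and 2 with the prefix term, and 2 lower by DESeq2, while at W4 it had 0 higher with every library kept and 2 lower by DESeq2 or with the prefix term and 0 lower in the fit with epithelial populations. Mesenchyme against CD31+ had 2 lower at P0 without the filter and in the fit with epithelial populations. The highest subtype was that of the age series for 6 of 10 members in newborn WT libraries, which are of P0 alone. The causes were not tested.

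Leaving out each library gave 78 to 94 pairs changed over the 5 ages, 17 to 26 higher and 17 to 33 lower at W4 against P0, and 6 to 36 higher and 1 to 15 lower at P0 against E16.5, with genotype at 0 throughout and the highest subtype kept by 9 to 10 members. In bulk it gave 1 to 4 higher and 0 lower with age, 0 to 1 higher and 0 lower for the interaction, 0 higher and 0 to 1 lower at P0 and 1 to 2 higher and 0 lower at W4 for gp38+CD26+ against gp38+CD26-. For Ly51+gp38- it gave 0 to 2 in each direction at P0 and 1 to 2 at W4, and for mesenchyme against CD31+ 6 higher and 1 to 2 lower at P0 and 5 to 6 higher and 1 lower at W4. Among values of single members, 1 turned direction with a call: Tbx18 in CapFb3 from P0 to W4 was -0.02 on the log2 scale with all libraries and ranged from -0.64 to 0.92 with each left out, the latter without P0 replicate 2 (adjusted p = 0.0404 by edgeR).

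The replicate numbers did not pair the libraries: same-numbered libraries had deviations correlating at -0.117 (E16.5 and P0), 0.0596 (E16.5 and W4) and -0.299 (P0 and W4), and at 0.27, -0.0503 and -0.643 over the newborn numbers. Newborn libraries of unlike number correlated at -0.692 to 0.752, the latter for Tbx1+/-Crkl+/- replicate 2 and WT replicate 3. No fit paired newborn libraries of unlike number. With the replicate block, 92 pairs changed over the 5 ages, 28 were higher and 25 lower at W4 against P0, 32 higher and 10 lower at P0 against E16.5, and 0 by genotype. With the numbers of the P0 libraries exchanged, a pairing chosen after seeing the data, these were 28 and 27, and 29 and 12. The bulk labels carry serial numbers that take the same 6 places, counted in runs of 12, in every population of an age, without saying what a place stands for. Between nonepithelial libraries of the same place the deviations correlated at -0.0832 to 0.171 at P0 (36 pairs, 7 over 0.1) and -0.0123 to 0.172 at W4 (33 pairs, 3 over 0.1), and no pair of unlike place at either age was over 0.1, a hint from the data and not the design. With the place as a serial replicate block, added after seeing the data, 2 members were higher in Ly51+gp38- than in the gp38+ populations at P0, Foxc1 being the added one (5.36 on the log2 scale, adjusted p = 0.0407 by edgeR), and no other call of a member in a comparison of bulk populations or in the interaction changed.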

Other observations

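Related genes from the lists also changed with age in the gp38+ populations. In gp38+CD26-, 6 of 10 genes of the EMT list were lower at W4 than at P0 by edgeR's quasi-likelihood test. None was higher, and 11.5% of all genes were lower. The list also holds Osr and Ebf genes, so the count is not of EMT factors alone. Osr2, an odd-skipped zinc finger gene of palate and tendon mesenchyme, fell by 1.86 on the log2 scale (SE 0.15, adjusted p = 7.2e-07), and Osr1, its paralogue, fell by 2.003 (SE 0.31). Of 14 E protein, Id and bHLH genes there, 5 rose and 2 fell, where 12.9% of all genes were higher, with Bhlhe41, a clock-related repressor, at 3.83 ± 0.45 and the bHLH inhibitors Id2 and Id3 at 1.67 ± 0.41 and 1.37 ± 0.25. In gp38+CD26+, by contrast, Osr1 rose by 1.46 ± 0.27, and its age change differed between the populations in the test of the interaction (3.47 ± 0.43, adjusted p = 4e-05), as did that of Ebf2 (1.82 ± 0.34). At W4 the mesothelial markers also separated these populations, with a summed level of 466.3 to 4990 CPM in gp38+CD26+ and 0 to 65.6 CPM in gp38+CD26-, and their part in these changes was not tested.

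Some members were detected in the epithelial populations. Foxp1 had a mean of 111 ± 35.3 CPM in mTEClo and 22.4 ± 8.21 in mTEChi (SD, n = 6), and Twist2 of 3.09 ± 1.51 CPM in cTEC at P0 and 4.65 ± 2.35 at W4. Foxc1 held 7.02 ± 3.86 CPM in cTEC at P0, and Foxf1 4.40 ± 1.78 in mTEC at P0.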
